A study of Mus musculus with 6 samples.

Results

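The Bcl2 family genes described here are *Bcl2*, *Bcl2l1*, *Bcl2l11*, *Mcl1*, *Bax*, *Bak1*, *Bid*, *Bad*, *Bbc3* and *Pmaip1*. Of these 10 genes, 9 were measured, among 19937 genes in all, in gonadal white adipose tissue (GWAT) on Affymetrix mouse gene arrays. *Bax* was not analysed here. Each gene was read from the array feature, called a probeset, that carries its symbol and no other, and each of the 9 genes had 1 such probeset. The genotypes were *ob/ob* and *ob/ob/Fsp27-/-*. Both lack leptin, so every animal was of an obese background, and the second also lacks *Fsp27* (*Cidec*), a gene for a lipid droplet protein of fat cells. All animals were males of 4 months kept on chow, and there were 3 arrays per genotype and no lean or *Fsp27-/-* group without the *ob/ob* alleles. Each array held RNA pooled from 3 mice, a step named in the methods and not in the labels, so the spread between arrays is one between pools and not between single mice.

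Bcl2 family proteins decide whether the outer mitochondrial membrane stays intact when a cell is under stress. Survival members hold the effectors in check, effectors open pores through which cytochrome c leaves the mitochondrion, and BH3-only members sense damage, growth factor loss or endoplasmic reticulum stress and tip the balance towards death. Several members, *Mcl1* and *Bcl2l11* above all, are also well known for setting the lifespan of blood and immune cells, and obese fat holds many of those cells beside its adipocytes.

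Of the 9 measured members, 3 were lower and 0 were higher in *ob/ob/Fsp27-/-* GWAT. The lower genes were the survival gene *Mcl1*, the effector gene *Bak1* and the BH3-only gene *Bcl2l11*, 1 from each functional class. Their levels were 0.504, 0.579 and 0.396 times those of *ob/ob* GWAT. A gene was called higher or lower when its change in limma, a linear model fitted to the 22961 probesets with a gene symbol, had a Benjamini-Hochberg adjusted p under 0.05 and a size of at least 0.5 on the log2 scale. By this rule 10.8% of all genes were lower, 9.58% were higher and 20.4% were called in either direction. The median change of the 9 members was −0.22 on the log2 scale, against 0.06 over all genes. In 6 members the 3 arrays of one genotype lay apart from the 3 of the other, 1 of them with *ob/ob/Fsp27-/-* on top and 5 with *ob/ob* on top, where 46.0% of all genes were apart in this way.

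**Figure D1:**
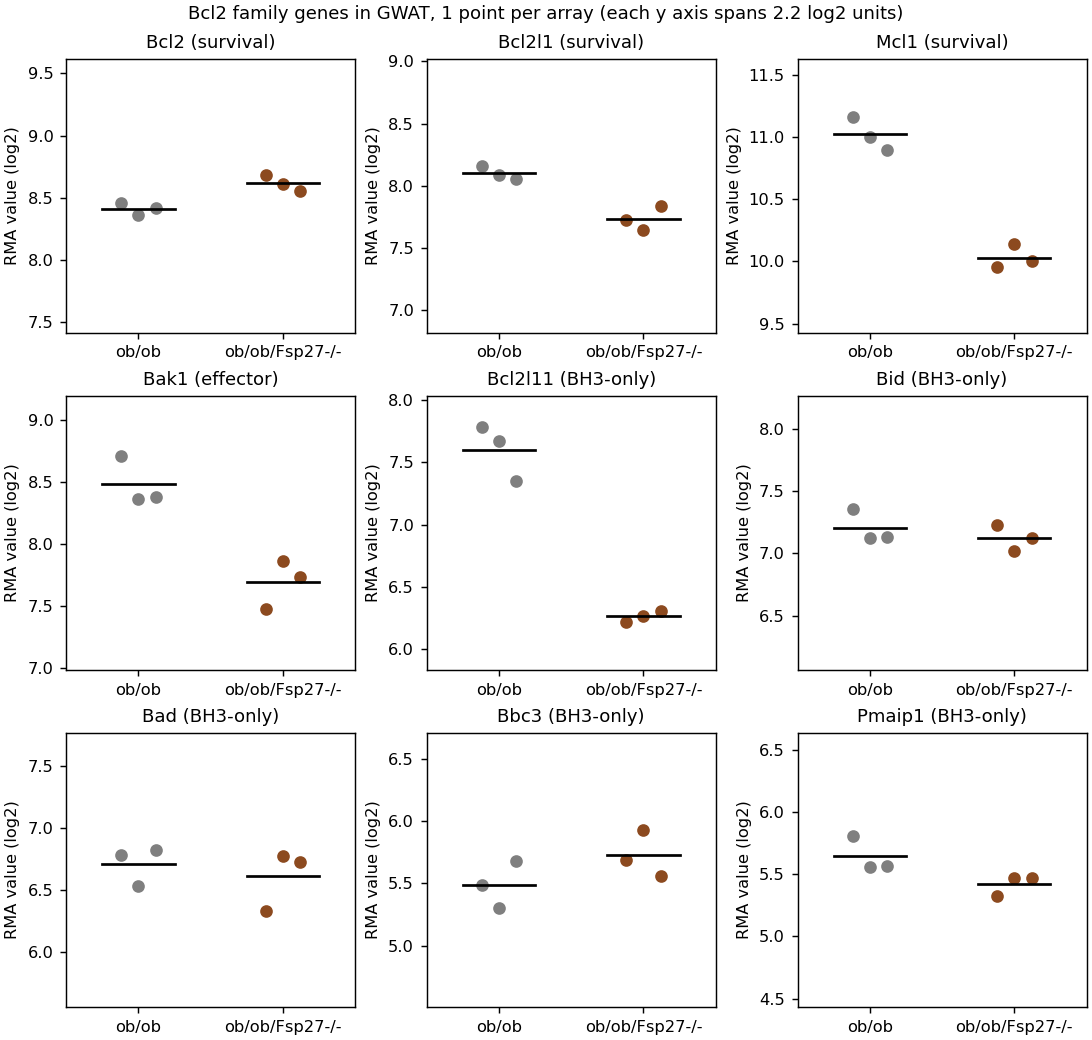
RMA values (log2) of the 9 measured Bcl2 family genes, 1 point per array and a line at the mean of each genotype, with every vertical axis spanning the same range. The arrays of *Mcl1*, *Bak1* and *Bcl2l11* stand well apart between genotypes, while those of *Bid*, *Bad* and *Bbc3* overlap.

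The promoter sequences of the 3 lower genes are shown because these genes moved in the same direction while serving opposed functions. Each line gives the 250 bases before a gene start in RefSeq, build GRCm38.p6, read 5′ to 3′ on the strand of the gene. Capitals mark every match, on either strand, to the searched motifs, which were the GC box GGGCGG, the CCAAT box CCAAT, the forkhead box GTAAACA, the core of the PU.1 site GAGGAA, the E-box CACGTG and the E2F box GGCGGGAA. No marked matches overlap in these windows.
*Bcl2l11*, chr2:128125788-128126037, plus strand: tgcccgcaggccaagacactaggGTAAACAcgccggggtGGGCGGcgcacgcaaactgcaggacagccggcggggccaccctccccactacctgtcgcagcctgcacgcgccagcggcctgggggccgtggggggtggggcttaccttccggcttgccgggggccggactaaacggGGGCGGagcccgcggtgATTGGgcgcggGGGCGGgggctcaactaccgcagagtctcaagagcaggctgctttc
*Mcl1*, chr3:95658471-95658720, plus strand: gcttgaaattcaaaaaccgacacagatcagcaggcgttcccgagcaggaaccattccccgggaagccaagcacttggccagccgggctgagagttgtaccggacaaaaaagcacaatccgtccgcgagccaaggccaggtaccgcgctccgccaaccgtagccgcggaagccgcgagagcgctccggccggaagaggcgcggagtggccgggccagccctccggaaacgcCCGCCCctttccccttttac
*Bak1*, chr17:27028628-27028877, minus strand: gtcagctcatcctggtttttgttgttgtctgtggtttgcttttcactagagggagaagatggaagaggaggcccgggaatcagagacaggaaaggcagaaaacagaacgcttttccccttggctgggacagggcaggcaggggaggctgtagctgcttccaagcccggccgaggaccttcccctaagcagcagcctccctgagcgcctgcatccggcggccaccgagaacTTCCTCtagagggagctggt

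The *Bcl2l11* window held 3 GC boxes, 1 CCAAT box and 1 forkhead box. The second RefSeq start of *Bcl2l11*, at chr2:128127325-128127574, had 2 GC boxes and 2 CCAAT boxes. The *Mcl1* window held 1 GC box and the *Bak1* window held 1 PU.1 core, so no searched motif was present in the windows of all 3 genes. Over 32851 RefSeq windows of the same length, the GC box occurred in 32.7%, the CCAAT box in 33.8%, the PU.1 core in 23.3%, the forkhead box in 3.17%, the E-box in 6.02% and the E2F box in 1.86%. Among the 14 windows of the 8 members that matched the table, the forkhead box was found in this *Bcl2l11* window and in 1 window of *Bbc3*, whose level was not called. A match is only a run of letters and does not show that a factor binds there.

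The survival genes were examined first. *Mcl1*, whose short-lived protein restrains *Bak1* in particular, had values of 11.16, 11.00 and 10.90 on the *ob/ob* arrays and 9.955, 10.136 and 9.9995 on the *ob/ob/Fsp27-/-* arrays. These are log2 values from the Robust Multi-array Average (RMA), in which a step of 1 is a doubling of signal. Every *ob/ob* array was above every *ob/ob/Fsp27-/-* array, and the gap between the genotypes was wider than the spread within either. The mean fell from 11.02 ± 0.13 to 10.03 ± 0.09 (SD, n = 3 arrays each), a log2 fold change of −0.99 (SE 0.10, 95% interval −1.22 to −0.76, adjusted p = 0.000479 in limma). Leaving out each array in turn gave log2 fold changes of −1.05 to −0.92.

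*Bcl2l1*, which encodes the survival protein Bcl-xL, had values of 8.16, 8.09 and 8.06 in *ob/ob* GWAT and 7.73, 7.64 and 7.84 in *ob/ob/Fsp27-/-* GWAT. The genotypes did not overlap. The log2 fold change was −0.37 (SE 0.08, 95% interval −0.56 to −0.17, adjusted p = 0.0158 in limma), so the gene passed the threshold on p and missed the one on size. With single arrays left out its adjusted p reached 0.0557.

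*Bcl2*, the founding survival gene, was the 1 member whose *ob/ob/Fsp27-/-* arrays all lay on top. Its values were 8.46, 8.36 and 8.42 in *ob/ob* GWAT and 8.69, 8.61 and 8.56 in *ob/ob/Fsp27-/-* GWAT. The log2 fold change of 0.21 (SE 0.08, 95% interval 0.03 to 0.39) did not pass, with an adjusted p of 0.0881 in limma. The 3 survival genes therefore gave differences of different sign and size, from −0.99 for *Mcl1* to 0.21 for *Bcl2*.

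Of the effectors, *Bak1* was measured. It encodes a protein that sits in the outer mitochondrial membrane and forms pores there once activated. Its values were 8.71, 8.37 and 8.37 on the *ob/ob* arrays and 7.48, 7.86 and 7.74 on the *ob/ob/Fsp27-/-* arrays. The highest value came from the first *ob/ob* array and the lowest from the first *ob/ob/Fsp27-/-* array, and the genotypes did not overlap. The mean fell from 8.48 ± 0.20 to 7.69 ± 0.19 (SD, n = 3 arrays each), a log2 fold change of −0.79 (SE 0.14, 95% interval −1.11 to −0.47, adjusted p = 0.0051 in limma). With single arrays left out the log2 fold change lay between −0.87 and −0.68, and the gene was called each time.

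Among the BH3-only genes the change was confined, at these thresholds, to *Bcl2l11*, the gene for Bim, which binds all the main survival proteins. Its values were 7.78, 7.67 and 7.35 in *ob/ob* GWAT and 6.22, 6.27 and 6.31 in *ob/ob/Fsp27-/-* GWAT. The genotypes did not overlap, and the *ob/ob/Fsp27-/-* arrays lay closer together than the *ob/ob* arrays. The mean fell from 7.60 ± 0.23 to 6.26 ± 0.04 (SD, n = 3 arrays each), a log2 fold change of −1.34 (SE 0.12, 95% interval −1.62 to −1.05, adjusted p = 0.000338 in limma). It was the largest change among the 9 members, and it ranged from −1.47 to −1.25 with single arrays left out.

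The other 4 BH3-only genes did not pass. *Bid*, which links death receptors to mitochondria, gave 7.36, 7.12 and 7.13 against 7.23, 7.02 and 7.12 in *ob/ob/Fsp27-/-* GWAT, a log2 fold change of −0.08 (95% interval −0.32 to 0.16). *Bad*, which responds to growth factor signalling through its phosphorylation, gave 6.78, 6.53 and 6.82 against 6.33, 6.77 and 6.72, a log2 fold change of −0.10 (95% interval −0.43 to 0.24). Both genes had overlapping arrays, and the sign for *Bad* turned to 0.04 without the first *ob/ob/Fsp27-/-* array. Their intervals exclude changes as large as that of *Bcl2l11*.

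*Bbc3* and *Pmaip1* encode Puma and Noxa, proteins induced by p53. Both of their means were under the medians of the arrays, which ran from 6.02 to 6.10, whereas the other 7 members were over them. *Bbc3* gave 5.49, 5.30 and 5.68 in *ob/ob* GWAT and 5.69, 5.93 and 5.56 in *ob/ob/Fsp27-/-* GWAT, with overlapping arrays and a log2 fold change of 0.24 (95% interval −0.08 to 0.55, adjusted p = 0.246 in limma). *Pmaip1* gave 5.80, 5.56 and 5.57 against 5.33, 5.46 and 5.47, a log2 fold change of −0.22 (95% interval −0.45 to 0.01, adjusted p = 0.139 in limma). The arrays of *Pmaip1* did not overlap, but the difference is small beside that of *Bcl2l11*. Values this low may hold little signal over background, which was not measured here. This limits what can be seen for the pair.

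**Figure D2:**
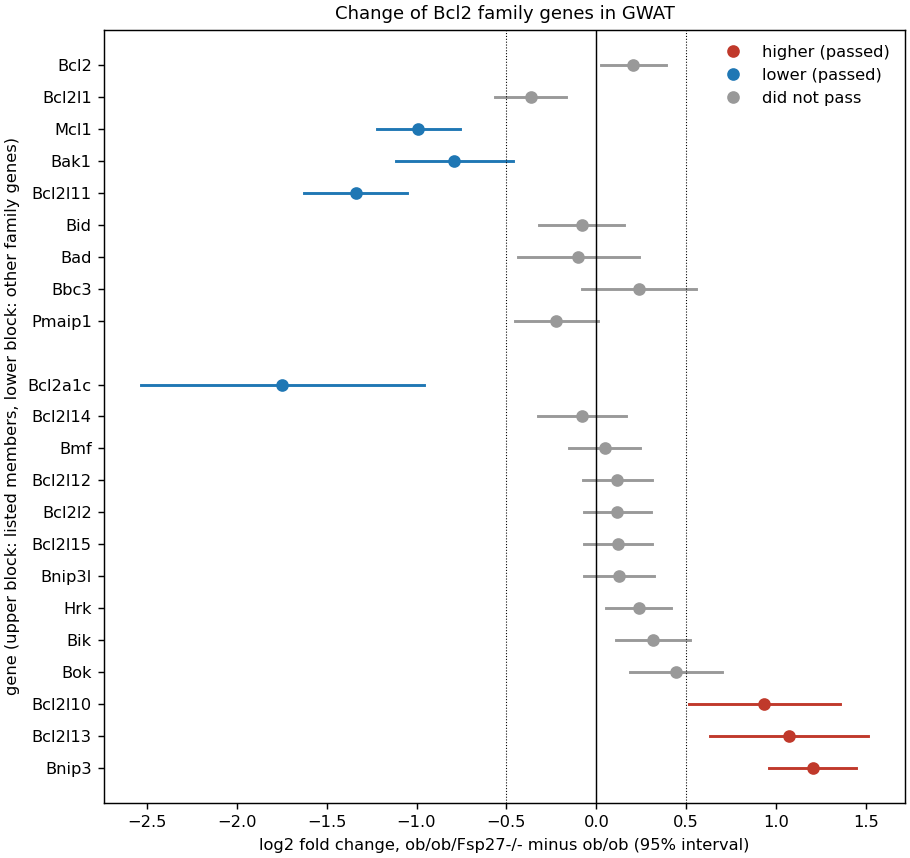
Log2 fold changes of Bcl2 family genes, *ob/ob/Fsp27-/-* minus *ob/ob*, as points with 95% intervals from limma and dotted lines at the threshold of 0.5 in either direction. *Mcl1*, *Bak1*, *Bcl2l11* and *Bcl2a1c* were lower, and *Bcl2l10*, *Bcl2l13* and *Bnip3* were higher.

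The rest of the family was then examined as background to these members. Of 16 further family genes 13 were measured, of which 3 were higher and 1 was lower, with a median log2 fold change of 0.13. *Bnip3*, a mitochondrial protein that marks mitochondria for removal, gave 10.28, 10.62 and 10.39 in *ob/ob* GWAT and 11.62, 11.61 and 11.67 in *ob/ob/Fsp27-/-* GWAT. Its log2 fold change was 1.20 (SE 0.10, adjusted p = 0.000268 in limma), and its other probeset gave 1.30. *Bcl2l13*, another mitochondrial receptor for mitophagy, gave 8.82, 9.30 and 9.54 against 10.14, 10.26 and 10.48, a log2 fold change of 1.07 (SE 0.19, adjusted p = 0.0051 in limma). *Bcl2l10*, a less studied survival relative, gave 5.73, 6.15 and 6.46 against 7.05, 6.95 and 7.14, a log2 fold change of 0.93 (SE 0.18, adjusted p = 0.00746 in limma). In all 3 genes every *ob/ob/Fsp27-/-* array lay above every *ob/ob* array. The *ob/ob* mean of *Bcl2l10*, at 6.11, was close to the array medians, so the size of its increase is less certain.

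The lower gene was *Bcl2a1c*, of the A1 group of survival genes of blood cells. It gave 7.29, 6.99 and 6.03 in *ob/ob* GWAT and 4.62, 5.32 and 5.13 in *ob/ob/Fsp27-/-* GWAT, a log2 fold change of −1.75 (SE 0.33, adjusted p = 0.00746 in limma). The A1 genes are near-identical copies, so the value is uncertain for any single copy. Its *ob/ob/Fsp27-/-* arrays all lay under the array medians, and the gene is dropped by a filter at the median level. A further probeset that carries 4 A1 symbols together gave 9.28, 8.86 and 8.30 against 6.15, 6.24 and 6.17, a difference of −2.62 on the log2 scale. A second one with 4 symbols gave 6.62, 6.32 and 5.66 against 6.543, 5.003 and 5.881, with overlapping arrays. The A1 probesets thus differ among themselves.

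The other 9 genes of the family did not pass. *Bok*, an effector-like member, gave a log2 fold change of 0.44 (95% interval 0.19 to 0.70, adjusted p = 0.0204 in limma), just under the threshold on size. The BH3-only genes *Bik*, *Hrk* and *Bmf* gave 0.32, 0.23 and 0.05 on the log2 scale. The mitophagy receptor *Bnip3l*, a close relative of *Bnip3*, gave 0.13 (95% interval −0.07 to 0.32), an interval that excludes the change of *Bnip3*. *Bcl2l2*, the gene for the survival protein Bcl-w, gave 0.12, *Bcl2l12* gave 0.12, *Bcl2l15* gave 0.12 and *Bcl2l14* gave −0.08.

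Downstream of the pore, cytochrome c assembles with *Apaf1* and caspase-9 into the apoptosome. Of 18 listed genes for the apoptosome, caspases and their inhibitors, 16 were measured, of which 3 were higher and 5 were lower, with a median log2 fold change of −0.16. *Apaf1* gave 8.54, 8.44 and 8.16 in *ob/ob* GWAT and 6.64, 6.79 and 6.97 in *ob/ob/Fsp27-/-* GWAT. Its log2 fold change was −1.58 (SE 0.13, adjusted p = 0.000253 in limma), with no overlap between genotypes. The other lower genes were the inhibitor of apoptosis genes *Birc5* and *Birc3* at −0.77 and −0.76, the mitochondrial protease gene *Htra2* at −0.59 and the caspase gene *Casp2* at −0.56. *Birc5* is also a gene of dividing cells, and its *ob/ob/Fsp27-/-* mean of 5.52 lay under the array medians. The higher genes encode proteins held within mitochondria of healthy cells, namely *Aifm1* at 1.16, *Cycs*, the gene for cytochrome c itself, at 0.60, and *Endog* at 0.56. The other probesets of *Cycs* gave larger changes of 1.30 and 0.76, so the size of its increase depends on the probeset. For *Endog* the *ob/ob* mean of 6.06 lay at the level of the array medians.

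Upstream, the death receptors and their complexes gave 1 higher and 4 lower genes among 15 measured of 16, with a median of −0.13. The tumour necrosis factor receptor gene *Tnfrsf1b* was at −1.74, the necroptosis genes *Mlkl* and *Ripk3* at −1.23 and −0.96, and *Casp8*, whose caspase cleaves *Bid*, at −0.58. The other measured receptor genes of the list, *Fas*, *Tnfrsf1a* and *Tnfrsf10b*, were not called, at 0.31, 0.16 and 0.11. The death ligand gene *Tnfsf10* was higher by 0.93. *Bid* itself did not pass, as given above.

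The transcription factor p53 is a known activator of *Bbc3*, *Pmaip1* and *Bax*. A list of p53 and its other targets had 4 higher and 4 lower genes among 18 measured of 20, with a median of 0.19. Neither *Trp53*, the gene for p53 itself, nor its target *Cdkn1a* was among the 18 measured. The stress genes *Sesn2* and *Gadd45a* were higher by 1.78 and 1.46, *Phlda3* by 0.82 and *Trp53inp1* by 0.68. *Plk2*, *Sesn1*, *Mdm2* (which encodes the ligase that degrades p53) and *Polk* were lower, at −1.83, −1.18, −0.86 and −0.63. The call for *Phlda3* was lost when array 2 of *ob/ob* was left out, at 0.80, and when array 2 or 3 of *ob/ob/Fsp27-/-* was, at 0.75 and 0.80.

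Regulators that control transcription, turnover or phosphorylation of family members included 6 higher and 4 lower genes among 28 measured of 32, with a median of 0.03. The endoplasmic reticulum stress genes *Trib3* and *Ddit3*, the latter a known activator of *Bcl2l11*, were higher by 1.37 and 1.27. The kinase genes *Pim3* and *Akt2*, whose products phosphorylate Bad, were higher by 1.04 and 1.01. Another of the 6 higher genes, *Foxo1* at 0.70, was still called in only 1 of 6 fits with single arrays left out. *Myc*, *E2f1* and the adaptor gene *Ywhah*, whose product holds phosphorylated Bad, were lower at −1.43, −1.29 and −1.20. Its relative *Ywhab* was higher by 0.53, a call kept in 5 of 6 fits with single arrays left out. Its relatives *Ywhag*, *Ywhae*, *Ywhaq* and *Ywhaz* were not called, at 0.48, 0.02, −0.01 and −0.45, so the adaptor genes did not share a direction. *Akt1* was lower at −0.51, a call lost at −0.49 and −0.45 when arrays were centred on their medians or on housekeeping genes, at −0.48 with array weights, at −0.43 without *ob/ob* array 1 and at −0.46 without *ob/ob/Fsp27-/-* array 3.

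Mitochondrial and endoplasmic reticulum partners of the family included 6 higher and 1 lower gene among 19 measured of 20, with a median of 0.29. *Ppif*, the gene for the cyclophilin of the inner membrane pore, was higher by 1.96 and *Mtch2*, the outer membrane receptor for Bid, by 1.13. *Bag1* and *Bcap31*, which bind Bcl2, were higher by 0.73 and 0.63. The calcium channel gene *Itpr3* was lower at −0.56, and this call was lost without *ob/ob* array 1 or 2, without *ob/ob/Fsp27-/-* array 2 or 3, and with probesets of no gene symbol tested too.

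**Figure D3:**
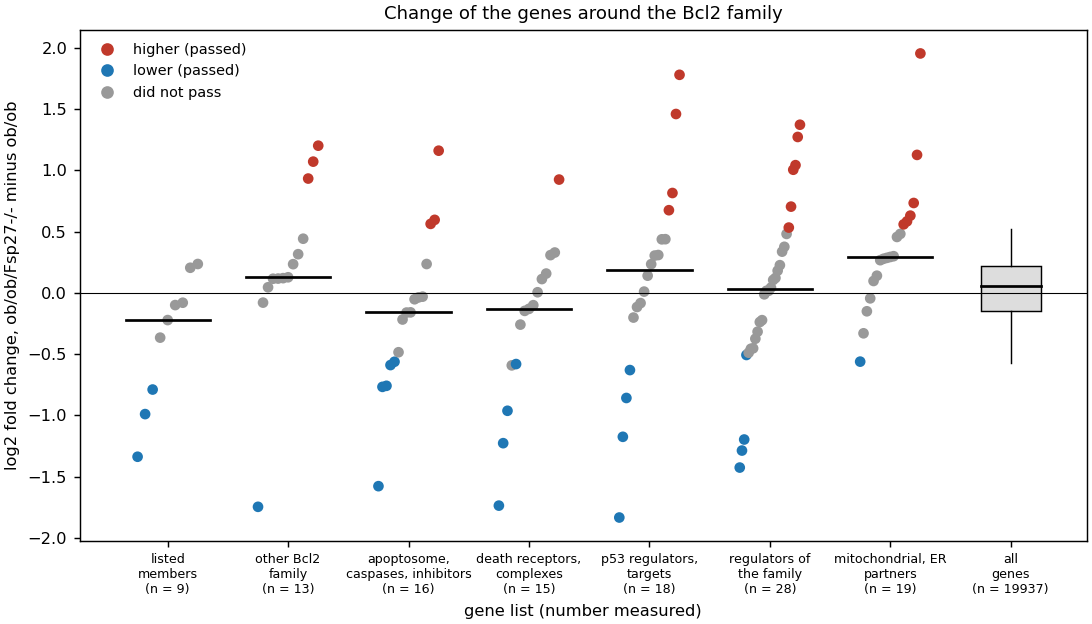
Log2 fold change of each measured gene in the 9 listed members and in 6 lists of genes around them, with a black line at the median of each list and, at the right, all 19937 genes as a box from the 25th to the 75th percentile with whiskers from the 10th to the 90th. The medians lie between −0.22 for the listed members and 0.29 for the mitochondrial and endoplasmic reticulum partners.

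Marker genes of the cells that GWAT can hold were read on the same arrays. Adipocyte markers were all over the array medians in both genotypes, 16 of 16, and 11 of them were higher in *ob/ob/Fsp27-/-* GWAT, with *Slc2a4* at 2.10, *Retn* at 1.47 and *Adipoq* at 1.20. Their mean level was 10.94 to 11.63 on the *ob/ob* arrays and 12.02 to 12.10 on the *ob/ob/Fsp27-/-* arrays. Macrophage markers were lower in 19 of 20 cases, with *Itgax* at −3.61, *Itgam* at −3.30 and *Ctss* at −3.27, and their mean level was 10.22 to 10.44 against 7.97 to 8.11. Of these markers 19 were still over the array medians in both genotypes. All 11 mitosis markers were lower, with a mean level of 7.88 to 8.11 against 5.89 to 6.04, and *Ccna2* at −3.05, *Top2a* at −2.73 and *Ccnb2* at −2.71. Of these markers 5 were over the array medians in both genotypes. The *ob/ob/Fsp27-/-* means of *Ccna2* and *Top2a*, at 5.72 and 5.39, were under them, so the sizes of these changes are less certain than their direction. The differences in mean level of the macrophage and mitosis lists exceed those of *Mcl1*, *Bak1* and *Bcl2l11*, which went in the same direction. Their part in the changes of the family was not tested, and in whole tissue fewer cells of a type and less RNA per cell cannot be told apart.

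Endothelial markers were higher in 7 of 12 cases (*Kdr* at 1.40, *Flt1* at 1.001, *Tie1* at 0.95), with a mean level of 8.24 to 8.76 against 9.24 to 9.31. Stromal progenitor markers were lower in 5 of 10 cases (*Col3a1* at −1.66, *Lum* at −1.56, *Col1a1* at −1.31), and mast cell markers in 5 of 9 (*Cpa3* at −2.98, *Mcpt4* at −2.11, *Tpsb2* at −1.63). The T-cell list had 1 call of 10, *Thy1* at −1.02, with a median log2 fold change of −0.19, and the neutrophil list 1 of 12, *S100a8* at 0.83, with a median of 0.15. The B-cell list had 1 call of 9, *Cd22* at −0.56, while its median was 0.63 and the other 8 genes had positive log2 fold changes that did not pass. Of the B-cell markers 6 had arrays apart between genotypes, 5 of them with *ob/ob/Fsp27-/-* on top. Over all genes the share apart was 46.0%. The mean level of the B-cell list was 5.33 to 5.46 against 5.47 to 6.44. Only 2 of 9 B-cell, 2 of 10 T-cell and 0 of 12 neutrophil markers were over the array medians in both genotypes. Changes in these lists therefore rest mostly on low values. The epididymis and testis list had 1 call of 11, *Prm1* at −0.93, and 2 of its genes were over the array medians. On the first *ob/ob/Fsp27-/-* array *Adam7* was at 5.896, against 3.85 to 4.61 on the rest. *Spag11b* was at 4.79 there, against 4.09 to 4.24. The list mean was also highest there, at 4.90 against 4.64 to 4.85. *Lcn5* was instead highest on the second *ob/ob/Fsp27-/-* array. *Adam7* and *Spag11b* lay under the array medians throughout, and the source of their high values was not tested.

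Within *ob/ob* the first array had the highest values of *Mcl1*, *Bak1* and *Bcl2l11*, the highest mean of the macrophage markers at 10.44 and the lowest mean of the adipocyte markers at 10.94. The third *ob/ob* array had the lowest values of *Mcl1* and *Bcl2l11*, the lowest macrophage mean at 10.22 and the highest adipocyte mean at 11.63. From the first to the third array the T-cell mean also fell, at 6.20, 5.95 and 5.68, and so did the mast cell mean, at 7.36, 7.30 and 6.61. The endothelial mean rose, at 8.24, 8.69 and 8.76, so the order was not particular to macrophage and adipocyte markers. Not all values followed this order. *Bak1* was lowest on the second *ob/ob* array, at 8.3653 against 8.3737 on the third. The mean of the mitosis markers was highest on the second, at 8.11, against 7.99 on the first and 7.88 on the third. With 3 arrays per genotype no correlation was computed. The first principal component held 79.0% of the variance and separated the genotypes, and the second held 8.20% and set the first *ob/ob/Fsp27-/-* array apart. Without that array *Mcl1*, *Bak1* and *Bcl2l11* were still called. *Cidec*, the gene disrupted in *ob/ob/Fsp27-/-* mice, differed by −0.29 on the log2 scale and did not pass. The place of its probes relative to the disrupted part is not given, so it does not check the labels.

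**Figure D4:**
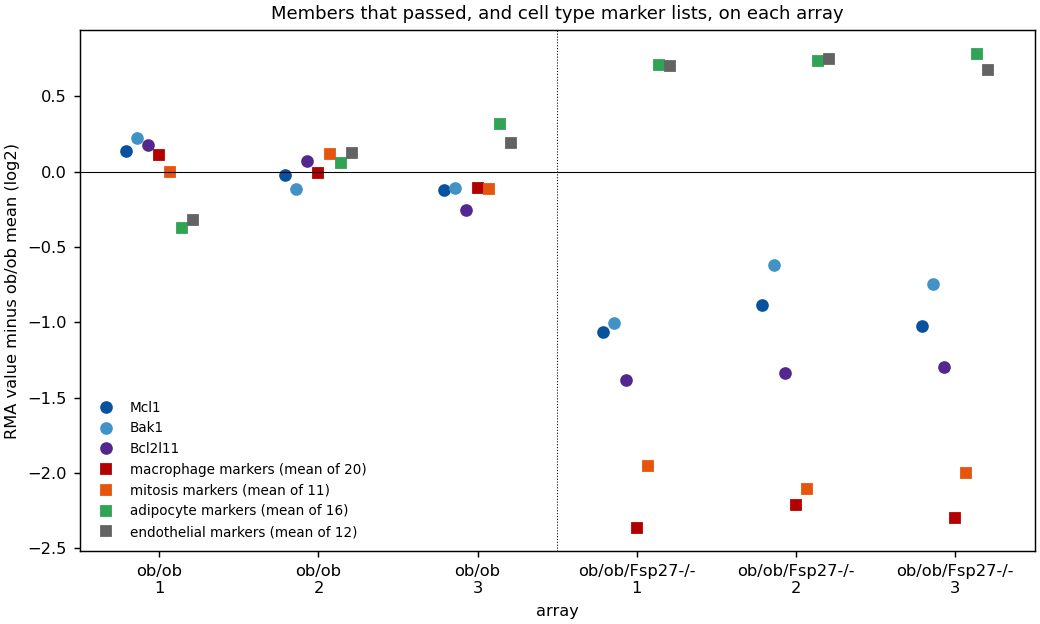
RMA values (log2) minus the *ob/ob* mean for the 3 lower members (circles) and for the mean of 4 marker lists (squares) on each of the 6 arrays. On the *ob/ob/Fsp27-/-* arrays the members lie below 0 with the macrophage and mitosis markers, and the adipocyte and endothelial markers lie above 0.

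Genes with a pattern like that of *Bcl2l11*, the member with the largest decrease, were sought by the root mean square difference over the 6 arrays after each gene was centred on its own mean. The nearest was *Fam171b*, with a root mean square difference of 0.04 and a log2 fold change of −1.32. *Sdcbp* and *Stard3nl* followed, each with a difference of 0.05 and a log2 fold change of −1.29.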

How the data were processed

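GWAT of 2 genotypes was hybridised to 6 Affymetrix arrays. The authors adjusted the background, quantile-normalised and summarised the probes by RMA, and deposited log2 values. For their RMA and limma, the version is not given in the sources used here. Of 34760 probesets, 22961 carry a gene symbol and were tested, and 21640 carry exactly 1. Symbols were updated by Entrez number. For a gene with several probesets the one with the highest mean was used. Genotypes were compared with limma 3.58.1 in R 4.3.3 (lmFit, eBayes, no covariates), which was tested on simulated data. Intervals are 95%, and 3 arrays per genotype set the precision.

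The members and lists were chosen with earlier results of these data known, and the lists come from general knowledge. Named were all members, every measured further family gene, up to 4 called genes per pathway list and direction (all where 5 or fewer were called), up to 3 per marker list, and the 3 nearest patterns. *Foxo1* was named besides, because its call was unstable. A few further list genes were named because they differ from those picked by this rule. Alternatives were filters on level, probesets tested, normalization, variance model, array weights, thresholds, averaged probesets and leaving out each array. *Bax* and protein sequences were not analysed here, so a planned *Bax* to *Bcl2* difference and a search for the BH3 motif were not run. Figures were drawn with matplotlib 3.10.9 in python 3.11.15.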

Additional observations from a re-analysis of the deposited data

How the results depend on the processing

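The comparison was repeated under 19 other settings. *Mcl1*, *Bak1* and *Bcl2l11* were called lower in all of them except at a fold threshold of 1 on the log2 scale, which left *Bcl2l11*, a count of 1, since *Mcl1* and *Bak1* stand at −0.99 and −0.79. With no fold threshold *Bcl2l1*, at −0.37, was called too. With single arrays left out the count of lower members stayed at 3 and that of higher members at 0. Over median centring, housekeeping centring and cyclic loess the log2 fold changes were −0.99 to −0.94 for *Mcl1*, −0.79 to −0.74 for *Bak1* and −1.35 to −1.29 for *Bcl2l11*. The deposited values were already quantile-normalised, with array medians of 6.02 to 6.10, so these settings could shift them only a little. Of the 12 housekeeping genes 1 was itself called higher and 1 lower, so that centring does not rest on unchanged genes alone. At a fold threshold of 1 the further lists held 1 higher and 1 lower gene for the apoptosome, 0 and 2 for the death receptors, 2 and 2 for p53, and 2 and 0 for the mitochondrial partners. With no fold threshold there were 5 higher further family genes, 8 lower regulators, and 11 higher and 2 lower mitochondrial partners. The filter at the median level left 0 lower further family genes, since *Bcl2a1c* falls under it. The lower mitochondrial partner, *Itpr3*, was lost with all probesets tested, a count of 0, and single arrays left out gave counts of 0 to 1. Testing all probesets leaves the log2 fold change of *Itpr3* as it was, so there the call was lost on the adjusted p. In the reported fit that adjusted p was 0.0367 in limma. No paired analysis was possible because the labels give no replicate numbers shared between the genotypes. An array has no read depth, and no background level was measured here. Values under the array medians, as for *Bbc3* and *Pmaip1*, may carry little signal over background.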
